A study of Mus musculus with 4 samples.

Results

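Genes of the mineralised tissue matrix were followed cell type by cell type in the growing mouse incisor. They were taken by symbol, 8 of 32285 genes in the files, from a list chosen with earlier results of these data known. The genes were Dspp, Dmp1, Ibsp, Mepe and Spp1, the acidic phosphoproteins encoded side by side on chromosome 5, together with the osteocalcin genes Bglap and Bglap2 and the osteonectin gene Sparc. All 8 had counts. The study asked what the gene Din (4930453N24Rik) does in the stem cells of the incisor. Single-cell RNA-seq libraries counting transcript 3′ ends were made from the proximal part of lower incisors of mice at postnatal day 15, with 2 WT and 2 Din-KO libraries. WT mice carried the intact gene, and Din-KO mice a conventional knockout allele in every cell, from which exon 2 had been removed and which holds a LacZ reporter. The tissue was digested to single cells and dead cells were taken out, and no source used here states how many mice went into a library, so p-values below measure the spread between libraries.

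Odontoblasts are the mesenchymal cells that lay down dentin. They secrete a collagen scaffold first and then the acidic proteins that bind calcium and guide mineral into it, and bone cells use an overlapping set. DSPP is the most tooth-specific of these proteins and is cleaved into dentin sialoprotein and dentin phosphoprotein, while osteopontin, bone sialoprotein and osteocalcin are known mainly from bone and SPARC from many connective tissues.

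The 4 libraries held 20502 barcodes and between 32198098 and 54348039 unique molecular identifiers (UMIs, each standing for 1 captured transcript). A cell was kept if it showed 1000 genes or more, with mitochondrial UMIs up to 10% and hemoglobin UMIs up to 3%, which left 3903 and 1560 cells from WT replicates 1 and 2 and 4575 and 1272 from Din-KO replicates 1 and 2, with median depths between 8016 and 11587.5 UMIs. Pairs of libraries shared between 0 and 4 barcodes among kept cells. Clusters were built without the 8 genes and Bglap3 and named from fixed markers. Y-linked UMIs were seen in 0.113% and 0.118% of mesenchyme-like cells of the WT libraries and in 45.5% and 47.1% of those of the Din-KO libraries, so genotype and the sex of the mice cannot be told apart. Replicate 2 of each genotype held fewer cells than replicate 1, and pulp-like cells numbered 296 and 235 there against 1968 and 2328. Levels are given in CPM, the usual count unit scaled to library size, here with the UMIs of a gene taken relative to all UMIs of the cells of a class in a library. In such sums, fewer expressing cells and less RNA per cell cannot be told apart. As 1 tag is counted per transcript, values were not divided by length, and levels are compared for 1 gene at a time.

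The 348 odontoblast-like cells (64, 106, 90 and 88 in WT replicates 1 and 2 and Din-KO replicates 1 and 2) had all 8 odontoblast markers above 5 CPM, with a summed level between 4195 and 9326 CPM. They also had 6 of 7 osteoblast or osteocyte markers above 5 CPM, summing to between 784 and 1305 CPM in the 4 libraries, with Fgf23 at 0. The class joined a cluster led by Dkk1 and Ifitm5 (212 cells) and a cluster led by Col11a2 and Phex (136 cells). The latter made up 11 of 64 and 65 of 106 odontoblast-like cells in the WT and 16 of 90 and 44 of 88 in the Din-KO libraries, so class levels mix the clusters in different shares. The 1350 dental follicle-like cells joined 3 clusters, led by Sfrp2 and Aldh1a2 (683 cells), by Bmp3 and Dkk2 (468 cells) and by Mmp13 and Timp1 (199 cells). The osteoblast or osteocyte list was read but could not name a cluster, so any such cells stand under another name. The other classes used below were pulp-like (4827 cells), epithelium-like (581), endothelium-like (750), macrophage-like (1188) and B-like (592). Smaller ones were monocyte or dendritic-like (242), glia-like (95) and perivascular-like (76).

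The 5 phosphoprotein genes lie on the plus strand of chromosome 5 within 270339 bp of mouse genome build GRCm38. The order is Dspp (chr5:104170712-104180127), Dmp1 (chr5:104202613-104214102), Ibsp (chr5:104299171-104311469), Mepe (chr5:104325329-104338611) and Spp1 (chr5:104435118-104441050). Bglap (chr3:88383501-88384464) and Bglap2 (chr3:88377736-88378699) are on the minus strand of chromosome 3, 4801 bp apart, and Sparc (chr11:55394500-55423183) is on the minus strand of chromosome 11.

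The sequences of Bglap and Bglap2 bear on every osteocalcin value. Their coding sequences, each 285 bases, differ by 4 substitutions (98.6% identity), and the last 200 bases of their transcripts, the stretch that a 3′ library reads, differ by 1 (99.5%). The split of reads between them is therefore uncertain. The stretch from coding base 2 to 31 in exonic sequence (chr3:88384385-88384414 and chr3:88378620-88378649, GRCm38, minus strand) is printed 5′ to 3′, with the 3 differing bases in capitals. It lies upstream of the last 200 bases, and so outside the stretch that a 3′ library reads.
Bglap: tgaggaccAtctTtctgctcactctgctgA
Bglap2: tgaggaccCtctCtctgctcactctgctgG

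Of the promoters of the 8 genes, RefSeq's table (GRCm38.p6, 300 bases each, 250 before and 50 after the start) held 8 for 6 genes. Dmp1 and Spp1 are shown because the first was found in odontoblast-like and the second in follicle-like cells, as described below, although their promoters share letters. The following 3 strings were searched on both strands, chosen after the promoters were seen. AACCACA, the core string recognised by RUNX factors, was in 5.27% of all 32817 promoters of that length. TTTAAATT was in 1.89% and TATAAA in 13.6%. The windows below carry the string in capitals and lie at chr5:104202441-104202470 and chr5:104434971-104435000 for AACCACA, and at chr5:104202575-104202604 and chr5:104435080-104435109 for TTTAAATT, all on the plus strand.
Dmp1 with AACCACA: agtcatttgagAACCACAagagctttttag
Spp1 with AACCACA: tttttttttttAACCACAaaaccagaggag
Dmp1 with TTTAAATT: ctgcagcagagTTTAAATTctgcactgtca
Spp1 with TTTAAATT: ctggaccagcaTTTAAATTctgggaggtct
The first base of AACCACA was 165 bases before the start in Dmp1 and 129 in Spp1, and that of TTTAAATT 31 and 20 bases before it. A match of letters is a description and not a binding site.

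**Figure D1:**
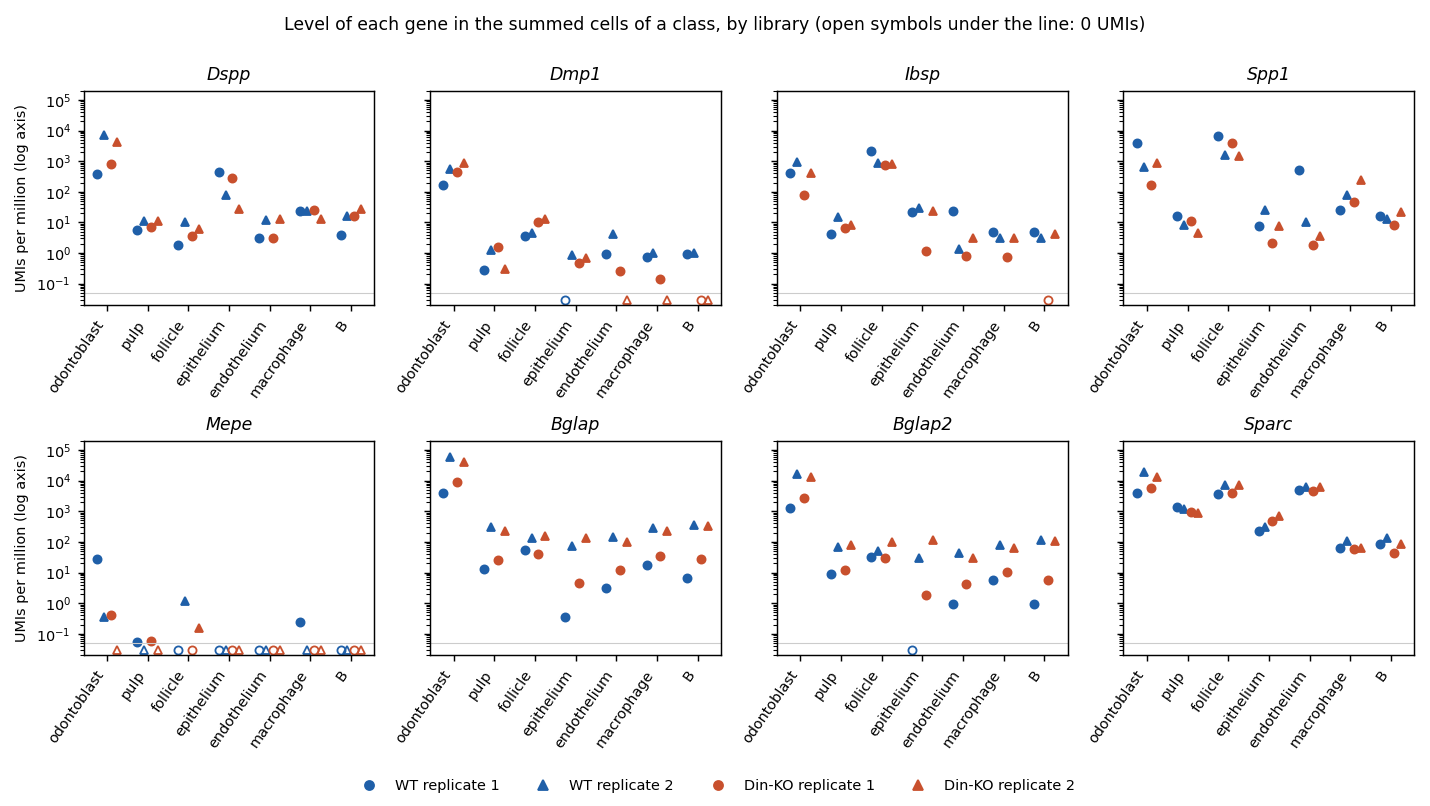
Level of each of the 8 genes (CPM, log axis) in 7 cell classes, 1 point per library. Blue is WT and orange Din-KO, circles are replicate 1 and triangles replicate 2, and open symbols mark 0 UMIs. Dspp, Dmp1, Bglap and Bglap2 have their highest means in odontoblast-like cells and Ibsp and Spp1 in follicle-like cells. Of the classes drawn, Sparc is spread over odontoblast-like, follicle-like and endothelium-like cells. Glia-like and perivascular-like cells are not drawn.

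Dspp, the dentin sialophosphoprotein gene, had its highest mean in odontoblast-like cells, which were the highest class in 3 of 4 libraries but not in WT replicate 1. Its level there was 386 and 7280 CPM in the WT libraries and 819 and 4099 CPM in the Din-KO libraries, a mean of 3146 ± 3216 CPM (SD, n = 4 libraries). Both replicate 2 libraries were above both replicate 1 libraries, and the genotypes overlapped. A Dspp UMI was found in 21.9% of odontoblast-like cells (95% exact binomial interval 12.5 to 34.0) in WT replicate 1 and in 72.6% (63.1 to 80.9) in WT replicate 2, at median depths of 18249.5 and 21225 UMIs. In macrophage-like cells, which should lack Dspp, the shares were 16.6% and 21.8% at median depths of 9953 and 8938 UMIs. With every cell thinned to 2000 UMIs the odontoblast-like shares were 12.5% and 60.4% and the macrophage-like shares 3.97% and 5.94%. Intervals and limits of this kind cover counting error only.

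Epithelium-like cells were the next class in level, with 452 and 78.4 CPM of Dspp in the WT and 272 and 28.4 CPM in the Din-KO libraries (208 ± 194 CPM, n = 4). Here the order of the libraries was the opposite one, with both replicate 1 libraries above both replicate 2 libraries. The ranges of the odontoblast-like and epithelium-like classes overlapped, and that of the epithelium-like class lay above the macrophage-like range of 12.7 to 25.9 CPM. Pulp-like cells stood at 5.58, 11.4, 7.12 and 11.1 CPM, within the range seen in classes of blood origin. Over the libraries, odontoblast-like cells held 69.9% ± 34.1 of all Dspp UMIs and epithelium-like cells 23.7% ± 28.3, and in WT replicate 1 epithelium-like cells held 60.1%.

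Dmp1, encoding dentin matrix protein 1, which regulates mineralisation and phosphate handling, was counted mostly in odontoblast-like cells, which held 92.4% ± 4.94 of its UMIs (n = 4). Its level there was 172 and 540 CPM in the WT and 430 and 841 CPM in the Din-KO libraries (496 ± 277 CPM), so the genotypes overlapped. Within the class most of its UMIs lay in the other cluster than those of Dspp, though its level was not higher there in every library. For Dspp the Col11a2 and Phex cluster held 58.3% ± 27.7 of all UMIs and the Dkk1 and Ifitm5 cluster 11.6% ± 7.78. The Dkk1 and Ifitm5 cluster had 136, 1091, 389 and 1248 CPM of Dmp1 in WT replicates 1 and 2 and Din-KO replicates 1 and 2, and held 71.6% ± 11.4 of Dmp1 UMIs. The Col11a2 and Phex cluster had 444, 239, 684 and 203 CPM of Dmp1 and held 20.8% ± 8.43. In both replicate 2 libraries the Dkk1 and Ifitm5 cluster was higher in Dmp1 and in both replicate 1 libraries the Col11a2 and Phex cluster was. Follicle-like cells came next among classes with a value in every library, at 7.90 ± 4.41 CPM.

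Ibsp, encoding bone sialoprotein, an early nucleator of mineral, had its highest mean in follicle-like cells, with 2113 and 847 CPM in the WT and 752 and 825 CPM in the Din-KO libraries (1134 ± 653 CPM, n = 4). These cells held 82.7% ± 9.15 of its UMIs. An Ibsp UMI was found in 32.2% of follicle-like cells of WT replicate 1 and in 18.0%, 16.4% and 15.7% in the other libraries (WT replicate 2, Din-KO replicate 1 and Din-KO replicate 2), against at most 3.70% of macrophage-like cells. The Mmp13 and Timp1 cluster reached 7426, 5111, 5627 and 1918 CPM in the order above, and the Bmp3 and Dkk2 cluster 544, 957, 127 and 1314 CPM. Odontoblast-like cells had 426 and 965 CPM in the WT and 77.9 and 423 CPM in the Din-KO libraries (473 ± 366 CPM), and their range overlapped that of the follicle-like class.

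Spp1, encoding osteopontin, a phosphoprotein that restrains crystal growth and anchors cells through integrins and CD44, was also highest in mean in follicle-like cells. It stood at 6624 and 1591 CPM in the WT and 3890 and 1465 CPM in the Din-KO libraries (3392 ± 2426 CPM, n = 4). The 199 cells of the Mmp13 and Timp1 cluster alone held 81.0% ± 7.48 of all Spp1 UMIs, at 25829 and 18399 CPM in the WT and 30981 and 12739 CPM in the Din-KO libraries. This cluster had 4 of 7 osteoblast or osteocyte markers above 5 CPM, summing to between 1644 and 2297 CPM in the 4 libraries, the highest of the clusters tabulated. As that list could not name a cluster and Mmp13 is itself a follicle marker, the name follicle-like does not separate follicle from bone-forming cells here. Among odontoblast-like cells the level was 3906, 659, 170 and 856 CPM, and single cells carried it. The highest cell held 31.7% and 57.0% of the Spp1 UMIs of the class in the WT and 67.3% and 84.4% in the Din-KO libraries. In endothelium-like cells of WT replicate 1, 1657 of 1686 Spp1 UMIs came from 1 cell (98.3%), and the class value of 521 CPM there stood against 10.5, 1.82 and 3.72 CPM in the others.

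Mepe, the matrix extracellular phosphoglycoprotein gene known from osteocytes, was near the limit of detection. The kept cells of the 4 libraries held 45 and 11 Mepe UMIs in the WT and 2 and 5 in the Din-KO libraries. Of the 41 UMIs in odontoblast-like cells of WT replicate 1, 34 were in 1 cell (82.9%). That was the 1 cell of 11310 with 10 or more Mepe UMIs, and it also had 10 or more of Ibsp, Spp1 and Sparc, and under 10 of Dspp, Dmp1, Bglap and Bglap2.

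Bglap and Bglap2, encoding osteocalcin, the vitamin K-dependent protein of bone and dentin, were concentrated in odontoblast-like cells, which held 94.8% ± 3.57 of Bglap and 92.0% ± 6.23 of Bglap2 UMIs (n = 4). Bglap stood at 3829 and 58436 CPM in the WT and 8834 and 39639 CPM in the Din-KO libraries (27685 ± 25904 CPM). Bglap2 stood at 1259 and 16593 CPM in the WT and 2736 and 13432 CPM in the Din-KO libraries (8505 ± 7648 CPM). For both genes the replicate 2 libraries were highest and the genotypes overlapped. The class range did not overlap that of any other class for either gene. In the Col11a2 and Phex cluster Bglap reached 30350, 81259, 56223 and 87394 CPM in WT replicates 1 and 2 and Din-KO replicates 1 and 2, and in the Dkk1 and Ifitm5 cluster 281, 16532, 1105 and 9148 CPM.

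Sparc, encoding a collagen-binding matricellular protein, was the broadest of the 8 genes. In odontoblast-like cells it stood at 3917 and 18753 CPM in the WT and 5640 and 12817 CPM in the Din-KO libraries, in follicle-like cells at 3785, 7043, 3798 and 6976 CPM, and in endothelium-like cells at 4851, 5970, 4619 and 6049 CPM. These 3 ranges overlapped. Glia-like cells, with enough cells in 2 libraries only, stood at 5654 to 6175 CPM. Perivascular-like cells, also in 2 libraries, stood at 2965 to 3579 CPM. Pulp-like cells stood lower, at 1411 and 1203 CPM in the WT and 943 and 905 CPM in the Din-KO libraries, and macrophage-like cells at 58.3 to 104 CPM. Within the Col11a2 and Phex cluster Sparc barely moved among libraries, at 23868, 25572, 25088 and 25587 CPM, whereas the Dkk1 and Ifitm5 cluster ran from 1248 to 6234 CPM. Follicle-like cells held 35.0% ± 11.6 of Sparc UMIs, odontoblast-like cells 25.1% ± 14.5, pulp-like cells 16.1% ± 15.3 and endothelium-like cells 15.4% ± 8.58.

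**Figure D2:**
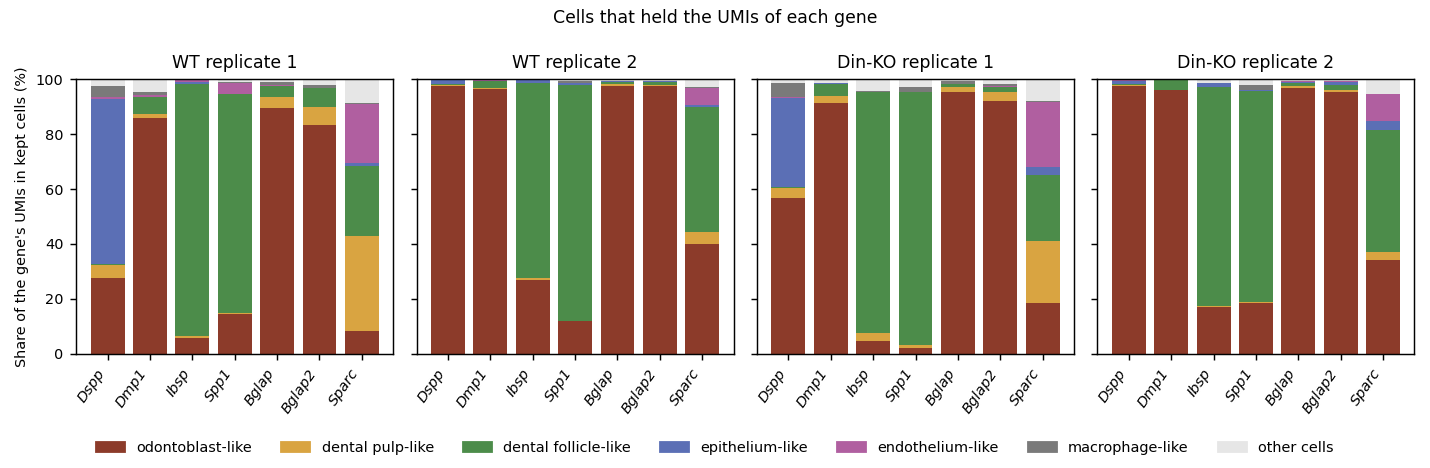
Share (%) of each gene's UMIs held by each cell class, as stacked bars, with 1 panel per library. Mepe, with at most 45 UMIs in a library, is not drawn. Odontoblast-like cells hold 94.8% of Bglap and 92.4% of Dmp1 UMIs on average, follicle-like cells 82.7% of Ibsp and 83.7% of Spp1, and Dspp is split between odontoblast-like and epithelium-like cells in different proportions.

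Few cells carried most of this RNA. The highest cells that together held 50% of all Dspp UMIs numbered 7 and 12 in the WT and 9 and 11 in the Din-KO libraries. For Bglap they numbered 2, 17, 5 and 11, for Spp1 7, 4, 4 and 4, for Ibsp 8, 7, 3 and 6 and for Dmp1 3, 7, 3 and 4. For Sparc the count was 356, 93, 212 and 76. A class level of any gene but Sparc thus rested on a small number of cells per library.

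Cells with 10 or more UMIs numbered 168 for Dspp, 82 for Dmp1, 253 for Ibsp, 167 for Spp1, 311 for Bglap, 251 for Bglap2 and 4922 for Sparc. Ibsp and Spp1 were both at that level in 112 cells, 67.1% of the Spp1 and 44.3% of the Ibsp cells. Dspp and Dmp1 shared 45 cells, 26.8% of the Dspp and 54.9% of the Dmp1 cells, and Dspp and Spp1 shared 17, 10.1% and 10.2%. Bglap accompanied most cells of the dentin pair, since 71.4% of Dspp and 84.1% of Dmp1 cells also had 10 or more Bglap UMIs. The shares of the Dspp cells mix 121 odontoblast-like and 47 epithelium-like cells. Of the 47, 0 had 10 or more UMIs of Bglap or of Dmp1.

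The odontoblast-like cells were next ordered by their Dspp count, from 171 cells with 0 UMIs through 56 with 1 to 9 and 37 with 10 to 99 to 84 with 100 or more. Of the 84 cells, 3 came from WT replicate 1, 40 from WT replicate 2, 8 from Din-KO replicate 1 and 33 from Din-KO replicate 2, and their median depth was 27235 UMIs against 17986 in cells with 0. These bins share cells with the class, and depth and library move with them, so the values are a description. Bglap went from 6473 through 15226 and 36377 to 76757 CPM across the bins. Sparc went from 5833 through 8614 and 14110 to 20067 CPM. Dmp1 went from 84.9 through 291 to 1201 CPM and stayed at 1128 CPM in the highest bin. Ibsp had no such order, at 445, 574, 710 and 452 CPM.

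Genes of matrix processing and mineral handling were read in the same bins. Phex, an endopeptidase that acts on the phosphoproteins, went from 32.4 to 1663 CPM from the lowest to the highest bin, and Mmp20, an enamel and dentin protease, from 14.7 to 1190 CPM. Smpd3, the sphingomyelinase of mineralising cells, went down from 4862 through 4072 and 2690 to 576 CPM. Sost, known from osteocytes, had 0.981 CPM in cells without Dspp and 195 CPM in the highest bin. Omd, osteomodulin, ran the other way, from 117 to 7.96 CPM.

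**Figure D3:**
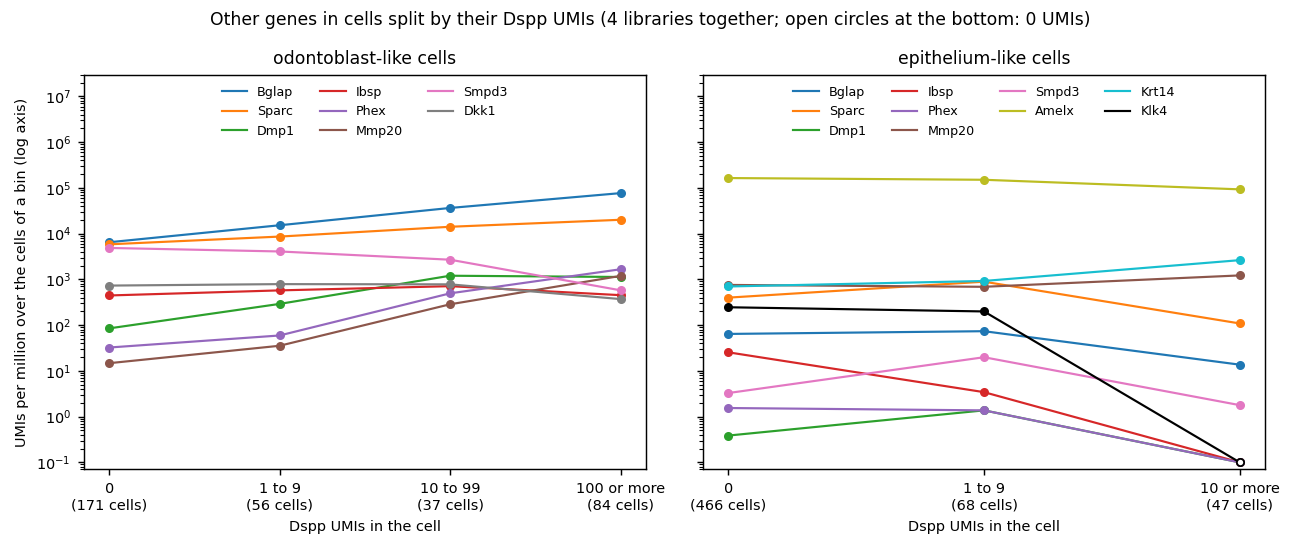
Level of other genes (CPM, log axis) in cells binned by their Dspp UMIs, in odontoblast-like cells (left) and epithelium-like cells (right). In odontoblast-like cells Bglap goes from 6473 to 76757 and Phex from 32.4 to 1663 while Smpd3 goes from 4862 to 576. In epithelium-like cells with 10 or more Dspp UMIs, Dmp1, Ibsp and Phex are at 0.

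The Col11a2 and Phex cluster, where Bglap and Sparc were highest, was itself mixed in Dspp. It held 91 cells with 10 or more Dspp UMIs and 31 cells with 0, of which 7 came from WT replicate 1, 10 from WT replicate 2, 2 from Din-KO replicate 1 and 12 from Din-KO replicate 2. Sparc was 24125 CPM in the former and 29885 CPM in the latter, and Bglap 91315 and 40697 CPM. Ibsp stood at 2606 CPM in the 31 cells against 565 CPM, and Spp1 at 11548 CPM against 965 CPM. WT replicate 1 gave 7 of the 31 but 4 of the 91 cells and held 5875 Spp1 UMIs of the cluster, against 1327, 320 and 1989 in WT replicate 2 and Din-KO replicates 1 and 2, so that library moves with the Spp1 values, and its part in them was not tested. The 31 cells held 41 Mepe UMIs, in 3 cells. Phex was 189 CPM and Mmp20 93.0 CPM without Dspp, against 1735 and 1458 CPM with it, and Omd was 339 CPM against 17.4 CPM. Other odontoblast markers read in this split were divided. Smpd3 (783 against 243 CPM) and Sgms2 (938 against 54.4 CPM) were the higher without Dspp, and Dkk1 (26.1 against 124 CPM) was the lower, like Phex. Among osteoblast or osteocyte markers, Alpl stood at 432 CPM without Dspp and 212 CPM with it, Runx2 at 111 and 40.7 CPM and Sp7 at 214 and 162 CPM. Slc13a5 and Sost were the lower without Dspp, at 297 against 388 CPM and 0 against 41.5 CPM, and Fgf23 was at 0 in both.

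Dspp in the epithelium was carried by its own set of cells. Presecretory ameloblasts are known to express Dspp for a short time before they make enamel. Of the 168 cells with 10 or more Dspp UMIs, 121 (72.0%) were odontoblast-like and 47 (28.0%) epithelium-like. The 47 numbered 18 and 7 in the WT and 19 and 3 in the Din-KO libraries, and 28 were in the cluster led by Enam and Amelx and 19 in the other epithelium-like cluster. They held 2664 Dspp UMIs, a level of 1582 CPM.

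Dmp1, Ibsp and Phex had 0 UMIs in these 47 cells. Bglap stood at 13.7 CPM, in 13 cells, and Sparc at 109 CPM, against 64.2 and 399 CPM in the 466 epithelium-like cells without Dspp. Those 466 numbered 113 and 93 in the WT and 148 and 112 in the Din-KO libraries, so the libraries enter both sets in different shares. Bglap UMIs of the whole class numbered 1 and 264 in the WT and 19 and 620 in the Din-KO libraries, and the part of the library in the lower Bglap was not tested. Col1a1, the main collagen of dentin, was at 24.4 CPM against 202 CPM. Amelx, encoding amelogenin, was at 92775 CPM and present at 10 or more UMIs in 47 of the 47. Ambn, encoding ameloblastin, was at 3711 CPM against 31835 CPM without Dspp, Klk4, the maturation-stage enamel protease, at 0 against 246 CPM, Shh at 571 against 256 CPM and Krt14 at 2630 against 699 CPM. None of the 47 cells was marked as a doublet, and their median doublet score was 0.0671 against 0.0404.

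In the follicle-like class the cells were ordered by Spp1 instead, into 1067 cells with 0 UMIs, 187 with 1 to 9, 41 with 10 to 99 and 55 with 100 or more. Ibsp went from 249 through 370 and 7377 to 13796 CPM, and Dmp1 from 0.422 through 4.02 and 27.6 to 131 CPM. Bglap went from 83.9 to 451 CPM and Sparc from 5624 to 9256 CPM. Ibsp moved most steeply between cells with 1 to 9 and with 10 to 99 Spp1 UMIs. Of the 96 follicle-like cells with 10 or more Spp1 UMIs, 79 were in the Mmp13 and Timp1 cluster. WT replicate 1 gave 39 of these 96 cells and 211 of the 1067 with 0. Cluster and library thus move with the bins, and the values are a description.

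A few macrophage-like cells had many Spp1 UMIs. The class stood at 24.6 and 79.5 CPM in the WT and 47.6 and 235 CPM in the Din-KO libraries, and 13 of 1188 cells had 10 or more Spp1 UMIs. They numbered 1 of 379 and 2 of 101 in the WT and 6 of 627 and 4 of 81 in the Din-KO libraries. In those 13 all 7 macrophage markers were lower than in the rest, from C1qa at 5940 against 6511 CPM to Mrc1 at 1180 against 1999 CPM and Cx3cr1 at 962 against 1538 CPM. Gpnmb stood at 123 against 0.636 CPM, Lgals3 at 1916 against 92.9 CPM and Fabp5 at 580 against 54.0 CPM. The osteoclast markers Calcr and Dcstamp were at 0, Ctsk at 6.82 against 5.96 CPM, Mmp9 at 6.82 against 9.38 CPM and Ocstamp at 6.82 against 1.75 CPM. Acp5 was at 143 against 46.7 CPM and Atp6v0d2 at 61.4 against 2.54 CPM. Ibsp, which accompanied Spp1 in the follicle, was at 6.82 against 2.30 CPM. In the 13 cells 6.82 CPM stands for 1 UMI in 1 cell. The Atp6v0d2 level there came from 9 UMIs in 2 cells and that of Gpnmb from 18 UMIs in 5 cells. The source of the Spp1 UMIs in the 13 cells was not tested.

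Droplets take up RNA from broken cells, and abundant transcripts are the first to show in cells that do not make them. A Bglap UMI was found in 7.02% of all kept cells of WT replicate 1 and 14.7% of Din-KO replicate 1, but in 81.3% and 79.2% of those of WT replicate 2 and Din-KO replicate 2. In macrophage-like cells the shares were 12.9%, 82.2%, 26.3% and 79.0% in WT replicates 1 and 2 and Din-KO replicates 1 and 2, at median depths of 9953, 8938, 10142 and 10469 UMIs. Thinned to 2000 UMIs per cell they were 2.91%, 43.6%, 7.19% and 32.9%. Barcodes under 500 genes had a Bglap UMI in 76.8% and 71.0% of cases in replicate 2 of WT and Din-KO, and in 3.04% and 7.71% in replicate 1. Bglap detection outside odontoblast-like cells thus moved with the library.

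The ratio of Bglap2 to Bglap UMIs was 0.329, 0.284, 0.310 and 0.339 in odontoblast-like cells, 0.324, 0.284, 0.304 and 0.292 in macrophage-like cells and 0.324, 0.287, 0.367 and 0.322 in barcodes under 500 genes. B-like cells of WT and Din-KO replicate 2 had 0.305 and 0.323. Macrophage-like and odontoblast-like ratios thus lay within 0.05 of each other in each library. Other classes spread more widely, with 0.651, 0.213, 0.480 and 0.361 in pulp-like and 0.556, 0.397, 0.747 and 0.632 in follicle-like cells. The Mmp13 and Timp1 cluster of the follicle stood at 0.570, 0.697, 0.865 and 1.13, and epithelium-like cells at 0.409 and 0.839 in WT and Din-KO replicate 2. The read split between these near-identical genes leaves the ratio itself uncertain.

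The ratio of Dspp to Bglap UMIs behaved otherwise. In odontoblast-like cells it was 0.101, 0.125, 0.0927 and 0.103 in the same order. In macrophage-like cells it was 1.34 in WT replicate 1 and 0.770 in Din-KO replicate 1, against 0.0849 and 0.0574 in the replicate 2 libraries, and in barcodes under 500 genes 1.23 and 0.539 against 0.0668 and 0.0635. Epithelium-like cells held most Dspp UMIs of WT replicate 1, as given above, and Bglap stood at 0.356 CPM in them. The source of the Dspp UMIs in other cells was not tested.

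**Figure D4:**
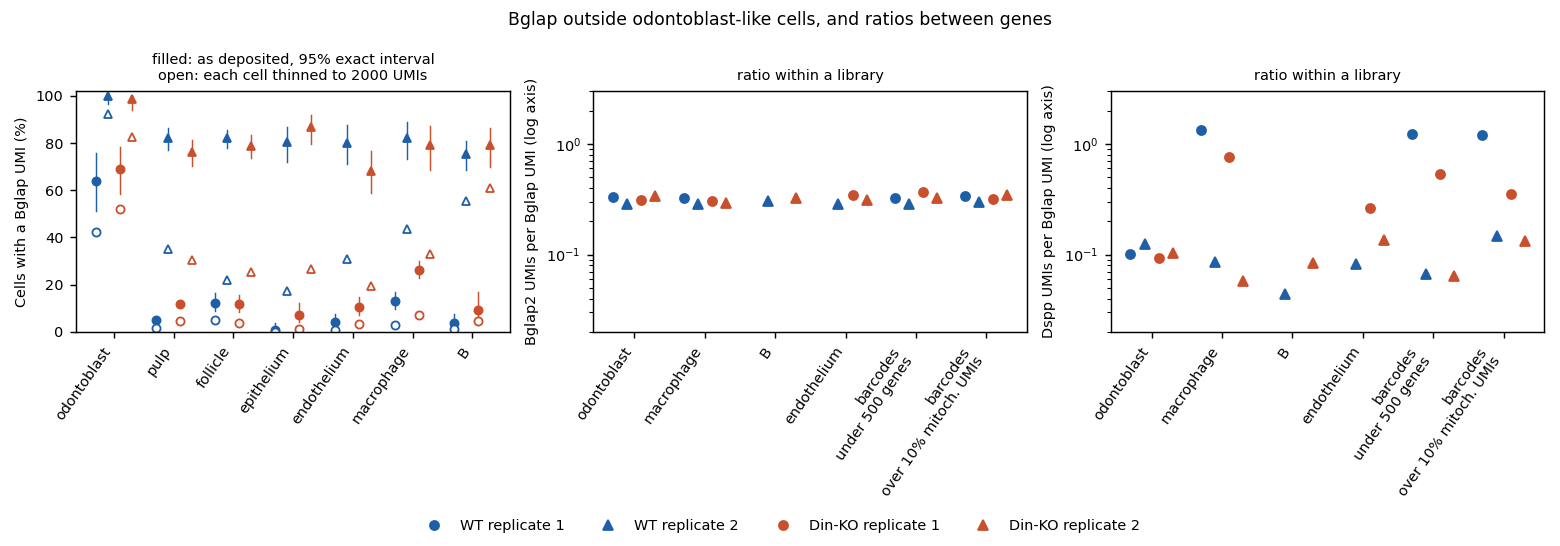
Share (%) of cells with a Bglap UMI per class and library (filled, as deposited with 95% exact binomial interval; open, thinned to 2000 UMIs per cell), and the ratios of Bglap2 to Bglap and of Dspp to Bglap UMIs per class and in removed barcodes. The replicate 2 libraries have Bglap in about 4 in 5 cells, the Bglap2 ratio of macrophage-like cells lies close to that of odontoblast-like cells, and the Dspp ratio of replicate 1 libraries is higher in macrophage-like cells.

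Barcodes removed by the cell filter held part of the members' RNA. They held 2.04% and 7.87% of all Bglap UMIs in the WT and 8.43% and 33.8% in the Din-KO libraries, and 7.01%, 8.26%, 11.2% and 38.6% of Dspp UMIs. In Din-KO replicate 2 the barcodes over 10% mitochondrial UMIs had 52035 Bglap and 6833 Dspp UMIs, at a Dspp to Bglap ratio of 0.131 that lies near the 0.103 of odontoblast-like cells there.

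The question put to the genotypes was whether loss of Din changed these genes within a class. UMIs were summed per library over each of 4 classes, and edgeR's quasi-likelihood model was fitted to all genes, without a replicate block, with Benjamini-Hochberg adjustment. None of the members passed in any class, and neither did any other gene. Of 15291 genes tested in mesenchyme-like, 10513 in odontoblast-like, 13903 in pulp-like and 12888 in follicle-like cells, 0% were called in each, while 162, 64, 188 and 293 had an unadjusted p under 0.05. DESeq2 called 16, 2, 9 and 45. Members with an unadjusted p under 0.05 were Mepe in mesenchyme-like and Dmp1 in follicle-like cells. On simulated counts with these libraries' means, the edgeR test called 46% of genes changed 4-fold and 90% of those changed 8-fold in odontoblast-like cells. Dspp in that class was 18.8-fold higher in replicate 2 than in replicate 1 in WT and 5.01-fold in Din-KO. For members with such a spread these shares do not tell how large a change would be called.

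In odontoblast-like cells, which mix the 2 clusters in the shares given above, the direction of the dentin genes differed between replicates. From the levels above, the log2 ratio of Din-KO to WT for Dspp was 1.08 in replicate 1 and -0.83 in replicate 2, and the log2 fold change of the fit was -0.78 (SE 1.45). Bglap gave 1.21 and -0.56, with a fitted -0.50 (SE 1.42), and Sparc a fitted -0.44 (SE 0.93). Dmp1 was the higher in Din-KO in both replicates, by log2 ratios of 1.32 and 0.64, but WT replicate 2 exceeded Din-KO replicate 1, and the fitted change was 0.70 (SE 0.71). For Spp1 the replicates gave -4.52 and 0.38. Each adjusted p in this class was 1.00 by edgeR with Benjamini-Hochberg adjustment.

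Ibsp was the only member of this class whose genotypes did not overlap, and that only just. Its 2 Din-KO values of 77.9 and 423 CPM lay below the WT values of 426 and 965 CPM. The fitted log2 fold change was -1.57 (SE 0.93). Being 1 of 8 members below, it stood beside 5.03% of all 11422 genes of the class with both Din-KO libraries below both WT libraries, and 0 of 8 were above, where 16.4% of all genes were. The osteoblast or osteocyte markers of the class summed to 784 and 1305 CPM in the WT and 968 and 1097 CPM in the Din-KO libraries, so they overlapped, and their part in the Ibsp values was not tested.

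In follicle-like cells Dmp1 was higher in both Din-KO libraries, at 10.7 and 12.6 CPM, than in the WT libraries, at 3.64 and 4.67 CPM. The log2 fold change was 1.41 (SE 0.33), and the adjusted p by edgeR with Benjamini-Hochberg adjustment was 0.900. These values rest on 18 and 40 UMIs in the WT and 51 and 81 in the Din-KO libraries, of which a single cell held 4, 15, 20 and 17. Ibsp was lower in both Din-KO libraries, with log2 ratios of -1.49 and -0.04 within replicates and a fitted -0.98 (SE 0.44). The Mmp13 and Timp1 cluster made up 81 of 311 and 41 of 422 follicle-like cells in the WT and 41 of 318 and 36 of 299 in the Din-KO libraries, and within that cluster and the Bmp3 and Dkk2 cluster the genotypes overlapped in Ibsp. In the Sfrp2 and Aldh1a2 cluster Ibsp was higher in both Din-KO libraries. It had 7 and 10 UMIs there in the WT and 10 and 650 in the Din-KO libraries. Only 1 cell of that cluster had 10 or more Ibsp UMIs, in Din-KO replicate 2. For Dmp1 the Mmp13 and Timp1 cluster stood at 12.7 and 11.9 CPM in the WT and 80.4 and 83.8 CPM in the Din-KO libraries. These values rest on 16 and 8 against 48 and 60 UMIs. In the Bmp3 and Dkk2 and the Sfrp2 and Aldh1a2 clusters the genotypes overlapped in Dmp1. The part of the cluster mix in the class values was not tested. Dmp1 was 1 of 7 members above, beside 15.6% of all 14051 genes, and Ibsp 1 of 7 below, beside 8.41%.

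In pulp-like cells Sparc was lower in both Din-KO libraries, by -0.58 and -0.41 on the log2 scale within replicates. The fitted change was -0.50 (SE 0.21). The pulp-like cluster led by Smoc2 and Lypd1 made up 227 of 1968 and 33 of 296 cells of the class in the WT and 620 of 2328 and 68 of 235 in the Din-KO libraries, and the part of this mix in the Sparc values was not tested. Sparc was the 1 of 7 members below, beside 11.3% of all 14767 genes, and 0 were above, beside 11.4%. A Sparc UMI was found in 95.6% and 96.3% of pulp-like cells of the WT and in 86.8% and 88.9% of those of the Din-KO libraries, and thinned to 2000 UMIs in 82.4% and 78.9% against 65.8% and 65.9%. In follicle-like cells, by contrast, the log2 fold change of Sparc was -0.07 (SE 0.40); the difference between the classes was not tested.

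Over all mesenchyme-like cells together, the classes enter in different proportions and the replicates stood far apart. Dspp stood at 25.2 and 1264 CPM in the WT and 76.7 and 878 CPM in the Din-KO libraries, so that replicate 2 exceeded replicate 1 by 50.1-fold in WT and 11.5-fold in Din-KO. For Bglap these folds were 45.5 and 10.8 and for Dmp1 9.44 and 4.62, but for Sparc 3.78 and 3.58 and for Spp1 0.683 and 1.37. Odontoblast-like cells were 64 of 2647 and 106 of 847 mesenchyme-like cells in the WT libraries, and 90 of 3029 and 88 of 635 in the Din-KO libraries. Spp1 and Mepe were the 2 of 8 members with both Din-KO libraries below, beside 6.5% of all 16166 genes, and 0 of 8 were above, beside 11.9%. Spp1 stood at 1387 and 947 CPM in the WT and 681 and 936 CPM in the Din-KO libraries (log2 fold change -0.57, SE 0.30). The fitted change of Mepe was -3.82 (SE 0.84, edgeR adjusted p = 1.00 by Benjamini-Hochberg), from 42 and 11 UMIs in the WT and 2 and 1 in the Din-KO libraries. It rests mainly on 1 cell in each WT library. The cell of WT replicate 1 described above held 34 of the 42, and a follicle-like cell of WT replicate 2 held 9 of the 11.

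**Figure D5:**
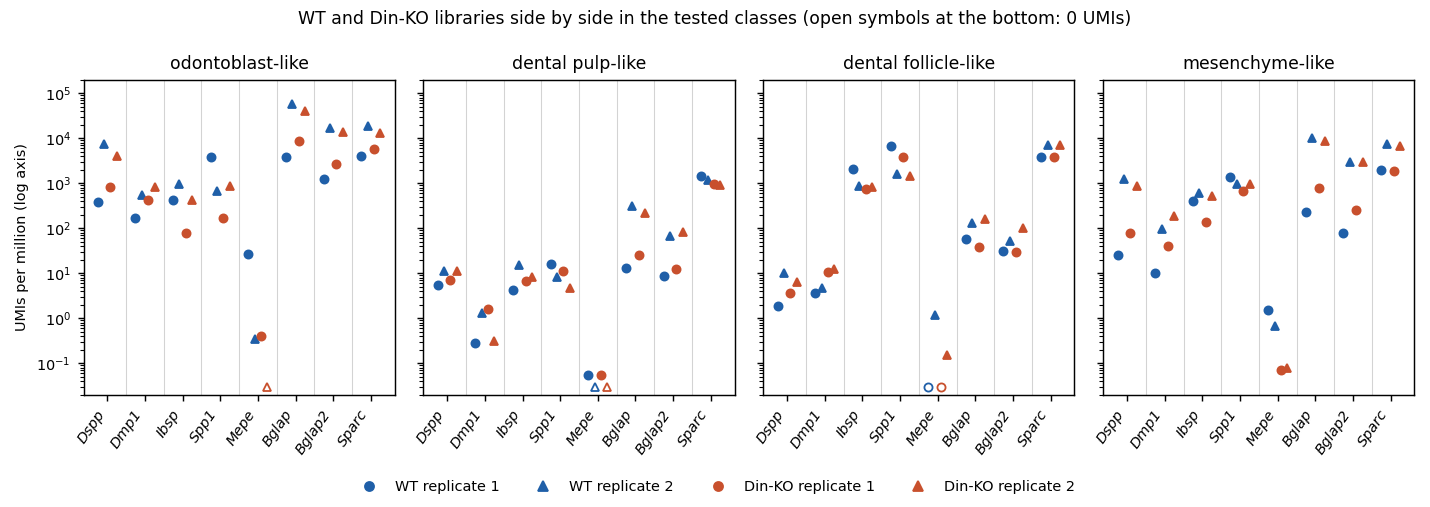
Level of the members (CPM, log axis) in the 4 classes in which genotypes were tested, 1 point per library, with WT in blue and Din-KO in orange, circles for replicate 1 and triangles for replicate 2. The genotypes do not overlap for Ibsp in odontoblast-like cells (426 and 965 against 77.9 and 423), Dmp1 and Ibsp in follicle-like cells, Sparc in pulp-like cells, and Spp1 and Mepe in mesenchyme-like cells.

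Lists of partner genes, 6 in number, were read from the same fits: modification and cleavage, mineral and phosphate, transcription factors, receptors, collagen scaffold and relatives. None of their tested genes passed the edgeR test in any class. The collagen scaffold list, 6 of 6 genes tested, had the median log2 fold changes -0.22, -0.41, -0.33 and -0.24 in mesenchyme-like, odontoblast-like, pulp-like and follicle-like cells, beside -0.02, -0.04, -0.01 and -0.02 over all genes. Its lowest p in pulp-like cells was that of Col3a1, the fibrillar collagen of soft tissue (log2 fold change -0.70, SE 0.21). In odontoblast-like cells its Col1a2 had -0.55 (SE 0.92). Col1a2 stood there at 4941 and 22433 CPM in the WT and 6206 and 14464 CPM in the Din-KO libraries, so its genotypes overlapped. The medians carry no measure of spread. Those of the relatives list were 0.23, -0.34, 0.29 and -0.04 in the same order of classes. Among receptors, the integrin chain Itgb3, through which cells bind osteopontin and bone sialoprotein, had a fitted change of -1.54 in follicle-like cells (SE 0.44). In odontoblast-like cells the pyrophosphate transporter Ank had 0.66 (SE 0.32) and the vitamin D receptor Vdr, which acts on osteocalcin and osteopontin genes, -1.57 (SE 0.76). Vdr stood at 23.9 and 6.01 CPM in the WT and 3.67 and 6.39 CPM in the Din-KO libraries, so its genotypes overlapped. Sparcl1, the closest relative of Sparc, had 0.85 in pulp-like cells (SE 0.34). Col3a1, Itgb3 and Sparcl1 had an unadjusted p under 0.05, and each of the named partners an adjusted p above 0.05, by edgeR with Benjamini-Hochberg adjustment.

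The genes most like each member were found by Pearson's r of log2(CPM + 1) over 44 class and library sums among 13884 genes. The members themselves were left out of these candidates. The sums share libraries and cell classes, so r is a description. For Dspp they included Bmp8a (0.83) and Slc13a5 (0.82), and for Dmp1 they were Avil (0.87), Sost (0.85) and Ccdc194 (0.84). Ibsp was closest to Bmp3 (0.86), Tnfrsf11b (0.85) and Bmper (0.85), and Spp1 to Bmp3 (0.74), Mmp13 (0.73) and Bmper (0.72). Bglap was closest to Col11a2 (0.80) and Mapt (0.79), and Bglap2 to Col11a2 (0.82) and Cpz (0.81). Sparc had the closest of these non-member genes, Bgn, encoding the matrix proteoglycan biglycan (0.96), followed by Fkbp10 (0.92) and Col5a2 (0.92). Between members, r was 0.98 for Bglap and Bglap2, above the r of either with its closest non-member gene. For Ibsp and Spp1 it was 0.80, above the closest non-member gene of Spp1 (0.74) but below that of Ibsp (0.86). Dspp and Dmp1, neighbours on the chromosome, had an r of 0.55 with each other.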

How the data were processed

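The authors sequenced 10x 3′ libraries and deposited raw UMI counts per gene and barcode as made by Cell Ranger (version 6.0.2 in the file headers) on mm10; the submitters' processing notes also name bcl2fastq and Seurat. From these counts, cells were kept by the study's limits (at least 1000 genes, at most 10% mitochondrial and 3% hemoglobin UMIs). Seurat 5.3.0 (R 4.3.3) integrated the libraries and clustered the cells at resolution 1 with cell cycle regression. Clusters were named from fixed marker lists, and a name needed at least 3 markers above 5 CPM. The osteoblast or osteocyte list was not used for naming. Scrublet (scanpy 1.11.5) marked 107 of 11310 cells as doublets (0.946%), which were kept. Counts summed per library and class were tested with edgeR 4.0.16 (TMM, filterByExpr, quasi-likelihood, Benjamini-Hochberg at 0.05, genotype only), after a test on simulated data, for classes with at least 20 cells per library; DESeq2 1.42.0 was an alternative. With 2 against 2 libraries no exact permutation test can reach 0.05. Thinning to 2000 UMIs left out 76 cells. Din was counted at 36.4 and 28.5 CPM in WT and 22.6 and 28.2 CPM in Din-KO mesenchyme-like cells, from 3′ tags that do not check the removed exon. The named genes were the 8 members, the 2 genes of lowest p in each partner list and the 3 non-member genes most like each member. Genes in the cell splits by Dspp and Spp1 were added afterwards. The members and lists were chosen with earlier results of these data known. Some genes that these rules named are not reported here.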

Additional observations from a re-analysis of the deposited data

Results flagged for a closer look

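In 7 places both Din-KO libraries lay on 1 side of both WT libraries for a gene that in another class had both Din-KO libraries on the other side. The difference between classes was not tested in any of them. In the classes where genotypes were tested, between 5.03% and 16.4% of all genes had both Din-KO libraries on a given side. How many genes lie on opposite sides in different classes was not counted, nor was any share for the other classes. The value given is the ratio of the mean CPM of Din-KO to that of WT. Spp1 had a ratio of 0.296 in epithelium-like and 0.0104 in endothelium-like cells, where both Din-KO libraries were lower, and of 4.11 in monocyte or dendritic-like cells, where both were higher. The endothelium-like ratio rests on the 1 cell of WT replicate 1 that held 98.3% of the UMIs of that class there. The epithelium-like ratio rests largely on 1 cell of WT replicate 2 with 69 of 88 UMIs, and the monocyte or dendritic-like ratio on 2 cells of Din-KO replicate 1 with 93.8% of 65 UMIs. Sparc had a ratio of 0.707 in pulp-like, 0.726 in macrophage-like and 0.573 in B-like cells, where both Din-KO libraries were lower, and of 2.26 in epithelium-like cells, where both were higher. In macrophage-like cells WT replicate 1 and Din-KO replicate 2 were nearly level, with 258 of 3982685 and 61 of 945027 UMIs. The B-like ratio rests on 93 and 133 Sparc UMIs in the WT and 16 and 41 in the Din-KO libraries.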

How the results depend on the processing

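The 29 pairs of a member and a class gave 372 values under alternatives, of which 322 kept direction and side of the threshold, 5 came past the threshold and 45 changed sign, 33 of these on leaving out a library and 0 past the threshold. Genes called in mesenchyme-like, odontoblast-like, pulp-like and follicle-like cells (0 in each by edgeR) were 16, 2, 9 and 45 by DESeq2 and 7, 2, 53 and 167 without the filter on low counts. With the replicate block they were 168, 10, 501 and 88. Leaving out 1 library gave 2 to 4, 0, 1 to 13 and 8 to 31 (the lone library of a group is then assumed to vary like the others). Pulp-like cells had 2 at clustering resolution 0.5 and 2 without cell cycle regression. Follicle-like cells had 1 without cell cycle regression, 2 without the 5% highest doublet scores and 2 under the wider cell filter.

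Replicate numbers were not stated to mark shared animals or days. The shift from replicate 1 to 2 nonetheless correlated between genotypes across genes (r = 0.83 in mesenchyme-like, 0.71 in odontoblast-like, 0.72 in pulp-like and 0.62 in follicle-like cells; genes are not independent replicates). With the replicate block, edgeR with Benjamini-Hochberg adjustment called Dmp1 (1.38, adjusted p = 0.0213) and Mepe (-3.96, adjusted p = 0.0416) in mesenchyme-like, Ibsp (-1.92, adjusted p = 0.0487) in odontoblast-like and Sparc (-0.49, adjusted p = 0.00133) in pulp-like cells. In the block, the log2 fold change changed sign to 0.45 for Dspp and 0.73 for Bglap in mesenchyme-like, 0.20 for Bglap and 0.29 for Bglap2 in odontoblast-like, 0.037 for Ibsp and 0.16 for Bglap in pulp-like and -0.13 for Bglap in follicle-like cells. Without the filter, Ibsp in follicle-like cells was called (-0.98, edgeR adjusted p = 0.0390). Sign changes elsewhere were 0.079 for Bglap in mesenchyme-like and 0.031 for Bglap2 in odontoblast-like cells (wider cell filter), 0.77 for Ibsp and 0.76 for Bglap in pulp-like cells (resolution 0.5) and 0.92 for Bglap there (no cell cycle regression). The causes were not tested.

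Leaving out each library in turn moved the log2 fold change, in mesenchyme-like cells, from -3.09 to 4.18 for Dspp, -0.41 to 3.41 for Dmp1, -1.88 to 0.0058 for Ibsp, -2.74 to 4.32 for Bglap, -2.58 to 4.26 for Bglap2 and -1.35 to 1.07 for Sparc. In odontoblast-like cells it ran from -2.52 to 2.70 for Dspp, -2.10 to 2.69 for Bglap, -1.99 to 2.71 for Bglap2 and -1.28 to 1.24 for Sparc. In pulp-like cells it ran from -0.32 to 0.62 for Dspp, -1.01 to 0.78 for Ibsp, -1.44 to 0.11 for Spp1, -2.61 to 3.15 for Bglap and -1.54 to 2.31 for Bglap2. In follicle-like cells it ran from -1.10 to 1.34 for Dspp, -1.57 to 0.72 for Spp1, -1.28 to 0.72 for Bglap, -0.53 to 1.21 for Bglap2 and -0.53 to 0.42 for Sparc. WT replicate 2 and Din-KO replicate 1 were the libraries whose loss turned Dspp and Bglap in mesenchyme-like and odontoblast-like cells.

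The odontoblast-like class grew from 348 to 1099 cells at resolution 0.5 and to 1205 without cell cycle regression, and Dspp went from 3146 to 1698 and 1419 CPM and Bglap from 27685 to 14957 and 12493 CPM. The SD over libraries is about as large as the mean for these genes, so that 116 of 117 alternative levels within 1 SD says little of stability. Dmp1 moved by more, to 210 CPM without cell cycle regression. Thinned to 2000 UMIs, Bglap was found in 2.91%, 43.6%, 7.19% and 32.9% of macrophage-like cells and in 1.10%, 55.6% and 61.2% of B-like cells of WT replicates 1 and 2 and Din-KO replicate 2. Low UMI numbers limit Mepe everywhere, Dmp1 outside odontoblast-like cells and Dspp outside odontoblast-like and epithelium-like cells.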
